A study of Mus musculus with 16 samples.

Results

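The 3p arms of the mouse miR-290/miR-295 cluster are the 7 mature microRNAs (miRNAs) cut from the 3′ side of its 7 hairpin precursors: mmu-miR-290a-3p, mmu-miR-291a-3p, mmu-miR-292a-3p, mmu-miR-291b-3p, mmu-miR-293-3p, mmu-miR-294-3p and mmu-miR-295-3p. They were taken by name from the 1978 mature names listed for every library, and all 7 are described. Small RNA was sequenced from laser-dissected mouse blastocysts, as polar pieces that hold the inner cell mass or as mural pieces of trophectoderm. Blastocysts diapaused in vivo were taken at EDG7.5 (3 polar and 3 mural libraries), blastocysts paused with an mTOR inhibitor (mTORi) gave 3 polar and 3 mural libraries, and normal blastocysts (WT) were taken at E4.5 (2 polar and 2 mural libraries). No strain is given, no day or dose for the inhibitor, and not how many embryos a library holds or whether a polar and a mural library came from the same embryos. Age therefore cannot be told apart from the pause, and p-values measure the spread between these libraries, which may be technical. The series asks how miRNAs differ between natural diapause, induced pause and normal blastocysts.

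A miRNA hairpin is cut into a duplex, and either strand can be loaded into Argonaute, which then represses mRNAs that pair with the seed, bases 2 to 8 of the miRNA. The miR-290/miR-295 cluster is transcribed as 1 primary RNA in early mouse embryos and embryonic stem cells, where its AAGUGC-seed miRNAs are known to promote the cell cycle and pluripotency. In diapause the blastocyst stops growing and delays implantation until the uterus is receptive. Inhibiting mTOR, a growth-controlling kinase, holds blastocysts in a similar pause in culture.

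The 7 precursors lie on the plus strand of chromosome 7 between 3218626 and 3220841, within 2216 bases (GRCm38, GENCODE M21). In genome order they are miR-290a, miR-291a, miR-292a, miR-291b, miR-293, miR-294 and miR-295. All but miR-290a lie inside Nlrp12, a gene on the opposite strand, where they overlap an annotated exon. The mature sequences below are from RefSeq (GRCm38.p6), which matched 6 of the 7 members, and miR-292a-3p is named only. They are shown because seed and near-identity decide which arms can act on the same targets and which can be confused in counting. Capitals mark the seed, and miR-302b-3p and miR-17-5p are shown for comparison.
miR-290a-3p: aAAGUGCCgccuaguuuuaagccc
miR-291a-3p: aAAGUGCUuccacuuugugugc
miR-291b-3p: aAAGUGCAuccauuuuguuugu
miR-293-3p: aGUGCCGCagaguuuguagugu
miR-294-3p: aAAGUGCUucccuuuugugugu
miR-295-3p: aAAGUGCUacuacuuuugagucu
miR-302b-3p: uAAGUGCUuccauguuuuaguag
miR-17-5p: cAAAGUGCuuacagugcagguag

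miR-291a-3p, miR-294-3p and miR-295-3p share the full seed AAGUGCU, which miR-302b-3p and miR-302d-3p of the miR-302 cluster also carry. miR-290a-3p and miR-291b-3p keep the core AAGUGC and differ in the last seed base. miR-293-3p has the seed GUGCCGC, which no other matched name holds: its bases 1 to 8 equal bases 3 to 10 of miR-290a-3p. The core AAGUGC stood within bases 2 to 8 of 16 of 1679 matched mature names (0.953%), 5 of them members. miR-294-3p matched miR-291a-3p at 19 of 22 positions, with the first 11 bases alike, and it also matched miR-291b-3p at 19 of 22 positions. How the authors assigned reads that fit more than 1 name is not given in the sources used here, so the levels of miR-291a-3p and miR-291b-3p, which were low beside miR-294-3p, are uncertain to that extent.

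Depth ran from 1744 to 20051 miRNA counts per library: 9049 to 20051 in diapaused, 2184 to 4386 in mTORi and 1744 to 8366 in WT libraries. For a share such as that of miR-294-3p, this gave exact 95% Clopper-Pearson intervals with half-widths of 0.471 to 1.39 percentage points, which cover counting error only. The epiblast miRNAs of the miR-302/miR-367 cluster, 5 names, were counted in polar pieces and not in mural ones, with 15 counts in polar diapaused, 2 in polar mTORi and 14 in polar WT libraries, and 0 in each mural group. The 2 counts in polar mTORi were of miR-302a-3p in 1 library, and the other names were at 0 in that group. miR-302c-3p was at 0 in all groups. Replicate 3 of polar mTORi stood apart, with 748 counts (21.4% of the library) of miR-203-3p, a miRNA of stratified epithelium, against 0.425% and 1.60% in the other polar mTORi libraries. Replicate 2 of polar WT held 113 counts (2.29%) of the erythroid miR-451a, against 0.115% in replicate 1. Values without these libraries stand beside the results they change. In bulk fragments, fewer cells that make a miRNA and less miRNA per cell cannot be told apart.

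Together the 7 3p arms gave 27001 of 122251 counts over all libraries (22.1%), and the 14 arms of the cluster gave 46.5%. The most counted was miR-294-3p, with 12776 counts, 10.5% of all counts and 47.3% of the 3p counts, the second most counted of the 497 names detected. miR-293-3p followed with 6256 counts (rank 4), miR-292a-3p with 5648 (rank 6) and miR-295-3p with 1707 (rank 12). miR-291a-3p had 404 counts (rank 47) and miR-291b-3p 207 (rank 70). miR-290a-3p had 3 counts, of which 2 fell in mural diapaused replicate 2 and 1 in mural WT replicate 1. In the 4 groups without a count of miR-290a-3p, a count of 0 allows a share of up to 0.00907% in polar diapaused, 0.0343% in polar mTORi, 0.0261% in mural mTORi and 0.0449% in polar WT libraries. The 3p and 5p names of miR-290b and miR-292b, which are annotated on the other strand of the same hairpins, had 0 counts in every library.

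The order of the levels was nearly the same in every library. miR-294-3p exceeded miR-293-3p in 16 of 16 libraries, by 1.45- to 2.86-fold with a median of 2.0-fold. miR-293-3p and miR-292a-3p did not separate: the first was higher in 10 of 16 libraries, with a median ratio of 1.06. miR-292a-3p exceeded miR-295-3p in 16 of 16 libraries (median 3.45-fold), and miR-295-3p exceeded miR-291a-3p in 16 of 16 (median 4.13-fold). miR-291a-3p exceeded miR-291b-3p in 14 of 16 libraries, was lower in polar diapaused replicate 2 and tied in 1. Ligation and amplification can differ between sequences, so these are orders of counts, not of molecules.

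**Figure D1:**
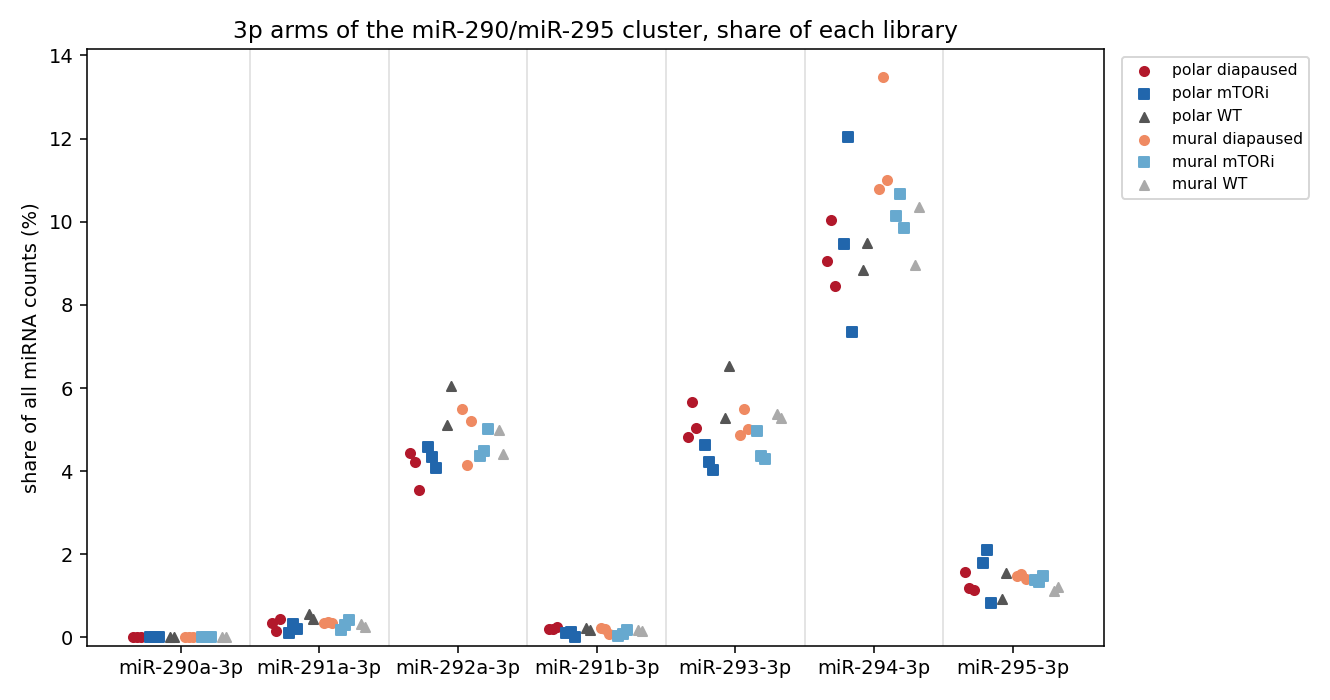
Share of all miRNA counts (%, y axis) of each 3p arm (x axis, in genome order), 1 point per library, coloured by the 6 groups of part and treatment. miR-294-3p lies between 7.34% and 13.5%, above every other arm, while miR-290a-3p lies at or near 0.

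Which arm of a hairpin was mainly counted differed between precursors, and the more counted arm was the same one in all 6 groups for each precursor but miR-291b, whose 3p arm gave 51.3% of the pooled counts in mural diapaused and 39.4% to 47.8% in the other groups. The 3 precursors at the 3′ end of the cluster were read mainly from the 3p arm, which gave a median of 80.7% of the counts of miR-293 (74.6% to 88.1% over 16 libraries), 97.3% of miR-294 (95.2% to 99.0%) and 83.5% of miR-295 (64.4% to 89.7%). The 4 precursors before them were read mainly or equally from the 5p arm. The 3p arm gave a median of 19.3% of miR-292a (15.97% to 30.4%), 20.9% of miR-291a (10.9% to 46.7%) and 43.3% of miR-291b, which had 451 counts in all and ran from 0% to 100% in single libraries. For miR-290a it gave at most 0.943%. These ranges held polar and mural pieces and all 3 treatments.

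**Figure D2:**
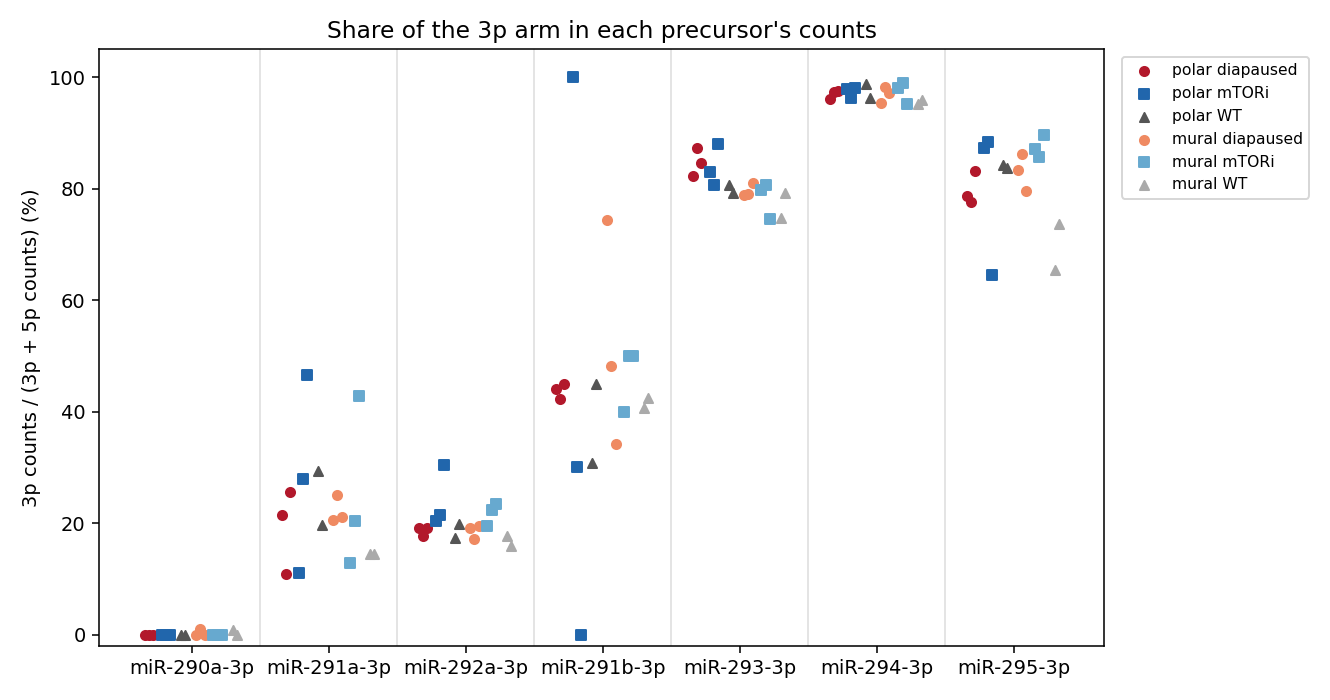
Share of the 3p arm in the summed 3p and 5p counts of each precursor (%, y axis), by 3p arm in genome order (x axis), 1 point per library, coloured by group. miR-293, miR-294 and miR-295 lie above 64%, and miR-292a below 31%, in all 16 libraries; miR-291b, with few counts, scatters over the whole range.

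The test of arm use was edgeR diffSpliceDGE on 22 arms of 11 precursors, Benjamini-Hochberg adjusted. It compares each arm with its precursor as a whole, so the arm that gives most of the counts can differ little from it. It called 0 members in each of the 9 comparisons, against a background of 0% of the arms tested in each. That background includes the 6 members tested and their 5p arms. On simulated counts the test called 1 of 6 arms of changed precursors at 2-fold and 3 of 6 at 4-fold. The 0 calls therefore do not show that arm use was unchanged. At an unadjusted p under 0.05 it found 1 member in 1 comparison: miR-292a-3p in diapaused against mTORi polar pieces (edgeR adjusted p = 0.491). Among the members' 5p arms it found miR-295-5p, in mural pieces only. That arm was lower than its precursor for diapaused against WT (edgeR adjusted p = 0.641) and mTORi against WT (edgeR adjusted p = 0.124). There the log2 change of miR-295-3p exceeded that of miR-295-5p by 1.09 and 1.60. miR-292a-3p gave 17.7% to 19.2% of its precursor's counts in polar diapaused, 20.4%, 21.4% and 30.4% in polar mTORi and 17.3% to 19.8% in polar WT libraries. The highest value, 30.4%, was that of polar mTORi replicate 3. In mural libraries it gave 17.2% to 19.6% in diapaused, 19.5% to 23.5% in mTORi and 15.97% to 17.6% in WT. The mTORi libraries were above the WT libraries of their part, and in mural pieces they overlapped the diapaused libraries. The edgeR adjusted p for miR-292a-3p was 0.945 for mTORi against WT in polar and 0.435 in mural pieces. The arm-use test was run with edgeR alone.

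The summed share of the 3p arms in a library's raw counts did not separate paused from normal blastocysts, while that of the 5p arms did. With the scaling used for levels further on, the most counted 5p arm was not lower in mural diapaused pieces. In polar pieces the 7 3p arms held 20.5%, 21.5% and 18.9% of all counts in diapaused, 20.7%, 23.2% and 16.5% in mTORi and 20.9% and 24.3% in WT libraries. In mural pieces they held 23.2%, 25.2% and 23.1% in diapaused, 21.1%, 21.2% and 21.3% in mTORi and 21.0% and 21.7% in WT libraries. Only the mural diapaused libraries lay wholly above the WT libraries of their part. The 7 5p arms held 24.1%, 23.7% and 19.1% in polar diapaused, 20.5%, 20.6% and 11.4% in polar mTORi, and 29.7% and 31.1% in polar WT libraries. In mural libraries the 5p arms held 27.7%, 24.4% and 25.7% in diapaused, 21.4%, 19.0% and 19.5% in mTORi, and 30.04% and 28.5% in WT. Each paused library had a smaller 5p share than every WT library of its part.

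Within the cluster the 3p arms therefore made up more of the counts in both kinds of pause. They held 47.7% ± 1.93 (SD, n = 3) of the 14 arms' counts in polar diapaused, 54.1% ± 4.53 (n = 3) in polar mTORi and 42.6% ± 1.79 (n = 2) in polar WT libraries. In mural pieces they held 47.9% ± 2.69 (n = 3) in diapaused, 51.5% ± 1.67 (n = 3) in mTORi and 42.1% ± 1.45 (n = 2) in WT libraries. By library the share ran from 45.6% to 50.8% in diapaused, from 49.6% to 59.1% in mTORi and from 41.1% to 43.9% in WT. Every paused library lay above every WT library. The diapaused and mTORi ranges overlapped in mural pieces. In polar pieces they did not, at 45.9% to 49.8% in diapaused and 50.3% to 59.1% in mTORi libraries. The highest value, 59.1%, was that of polar mTORi replicate 3; without it the polar mTORi mean was 51.6%. Without polar WT replicate 2 the polar WT value was 41.3%. This is a description of sums over the members, with no test. Depth moved with the groups in part: WT and mTORi totals overlapped, and diapaused totals were above both, and its part in the result was not tested.

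**Figure D3:**
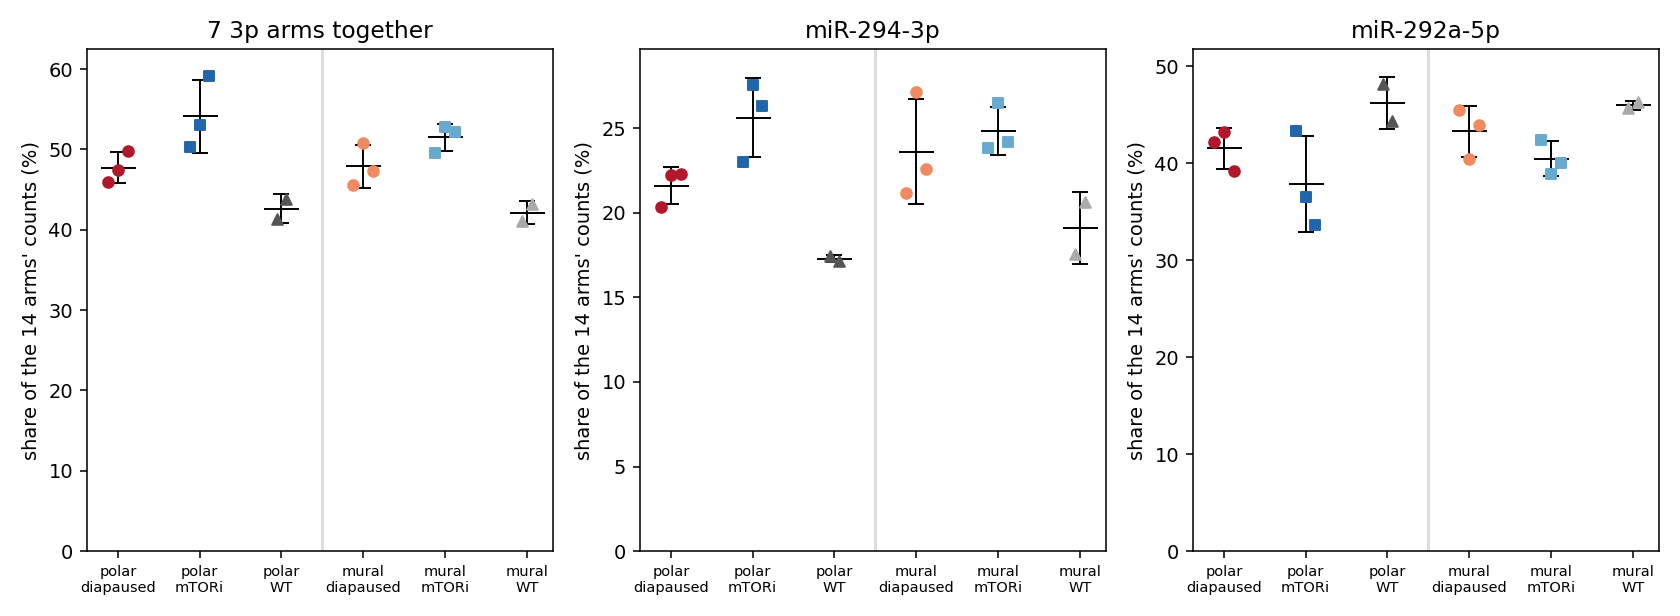
Share of the 14 cluster arms' counts (%, y axis) held by the 7 3p arms together, by miR-294-3p and by miR-292a-5p, for the 6 groups (x axis); points are libraries, bars the mean and SD. The summed 3p share is 45.6% to 59.1% in paused and 41.1% to 43.9% in WT libraries.

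As shares of the cluster, miR-294-3p and miR-292a-5p, the 2 most counted arms, differed in opposite directions. Both are parts of 1 total, so a larger share of 1 arm leaves less for the other. The scaled levels tested below gave log2 changes against WT for miR-294-3p and miR-292a-5p in turn. They were 0.60 and 0.21 in mural diapaused and -0.05 and -0.50 in polar diapaused pieces. In mTORi pieces they were 0.21 and -0.62 in polar and 0.16 and -0.39 in mural. miR-294-3p held 20.3%, 22.2% and 22.3% of the cluster in polar diapaused, 23.0%, 27.5% and 26.3% in polar mTORi and 17.4% and 17.2% in polar WT libraries. In mural libraries it held 21.2%, 27.1% and 22.6% in diapaused, 23.9%, 26.5% and 24.2% in mTORi and 17.6% and 20.6% in WT. In each part all paused libraries lay above both WT libraries. miR-292a-5p held 39.2% to 45.5% in diapaused, 33.6% to 43.3% in mTORi and 44.3% to 48.1% in WT libraries, and within each part it was lower in every paused library than in every WT library. The ratio of miR-294-3p to miR-292a-5p counts, which does not depend on how libraries are scaled, was 0.521 ± 0.0443 (SD, n = 3) in polar diapaused, 0.690 ± 0.137 (n = 3) in polar mTORi and 0.375 ± 0.0176 (n = 2) in polar WT libraries. Without polar mTORi replicate 3 the polar mTORi mean was 0.643, and without polar WT replicate 2 the polar WT value was 0.362. In mural pieces it was 0.550 ± 0.108 (n = 3) in diapaused, 0.616 ± 0.0604 (n = 3) in mTORi and 0.416 ± 0.0430 (n = 2) in WT libraries.

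Other 3p arms contributed less. miR-295-3p held 2.65% to 3.56% of the cluster in diapaused, 2.97% to 4.82% in mTORi and 1.81% to 2.82% in WT libraries. Within mural pieces its ranges did not overlap, at 2.88% to 3.08% in diapaused, 3.27% to 3.65% in mTORi and 2.19% to 2.41% in WT. Within polar pieces the diapaused range overlapped the mTORi and the WT range. miR-293-3p held 9.56% to 13.3% in diapaused, 9.63% to 14.4% in mTORi and 10.4% to 11.8% in WT libraries, with full overlap. miR-292a-3p held 8.38% to 10.8% in diapaused, 9.95% to 14.7% in mTORi and 8.79% to 10.9% in WT libraries. In mural pieces it held 10.2% to 12.3% in mTORi, above 8.79% and 9.78% in WT, while diapaused overlapped both. In polar pieces it held 9.31% to 9.98% in diapaused, below 10.1% and 10.9% in WT, while mTORi overlapped WT. Both arms of miR-293, miR-294 and miR-295 together, a grouping made after the values were seen, held 37.8% to 45.2% of the cluster in diapaused, 42.1% to 47.8% in mTORi and 32.7% to 38.0% in WT libraries.

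The difference of the summed 3p share from WT was split, on counts pooled by group, into the part due to which precursors were counted and the part due to which of their arms was counted. In polar diapaused pieces the share was 4.08 percentage points above WT, of which 3.78 came from the mix of precursors and 0.296 from the arms. In polar mTORi pieces it was 10.5 points above WT, 7.36 from the mix and 3.18 from the arms. Without polar mTORi replicate 3 that difference was 8.19 points, with 1.43 from the arms. Without polar WT replicate 2 the difference was 5.99 points in polar diapaused, with 0.595 from the arms, and 12.5 points in polar mTORi, with 3.49 from the arms. In mural pieces it was 6.07 points above WT in diapaused (3.60 from the mix and 2.47 from the arms) and 9.07 points in mTORi (4.96 and 4.12). miR-294, both arms summed, made up 22.1% of the cluster in polar diapaused, 26.1% in polar mTORi and 17.8% in polar WT, and 24.8% in mural diapaused, 25.4% in mural mTORi and 20.2% in mural WT pieces.

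Levels of single arms were then compared with edgeR's quasi-likelihood test on TMM-scaled counts (CPM, counts scaled to a library of 1000000), adjusted by Benjamini-Hochberg over the 102 miRNAs tested, and a miRNA was called at an adjusted p under 0.05. Of the members, 6 of 7 passed the filter on low counts, and miR-290a-3p did not. Members were called 3 times over the 11 contrasts with 6 members tested in each. All 3 calls were of miR-294-3p or miR-292a-3p, in contrasts that involve mural diapaused pieces. Of all 102 tested miRNAs, 0% to 22.5% were called in a contrast, and that share stands beside each result below. On counts simulated for mural diapaused against WT, the test called 3 of 20 changed miRNAs at 2-fold and 13 of 19 at 4-fold. A contrast without a call therefore does not show equal levels.

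In mural pieces, miR-294-3p was higher in diapaused than in WT blastocysts. It had 136590, 165488 and 136590 CPM in diapaused libraries, against 89887 and 103566 CPM in WT libraries, and the groups did not overlap. The log2 fold change was 0.60 (SE 0.17, edgeR adjusted p = 0.0319). It was 1 of 6 members called higher, against 7.84% of all tested miRNAs called higher and 9.80% called in either direction. All 6 members had a positive log2 change, between 0.26 and 0.65 with a median of 0.49, beside a median of 0.19 over all 102. This call was not kept with RLE factors (log2 0.34, adjusted p = 0.280), with library size alone (0.28, adjusted p = 0.401), with DESeq2 (0.34, adjusted p = 0.298), with no filter (0.47, adjusted p = 0.753), with only the groups compared (0.51, adjusted p = 0.114), or when any 1 of the 5 libraries compared was left out (0.45 to 0.63, edgeR adjusted p 0.141 to 0.370). The scalings differ in where they put the middle: relative to the median of all tested miRNAs the change was 0.40 with TMM, 0.39 with RLE and 0.37 with library size alone. Subtracting the median removes most of the scaling, so this likeness is no test of it. miR-293-3p, at 0.26 with TMM, turned to -0.01 with RLE and -0.06 with library size.

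In polar pieces no member was called for diapaused against WT blastocysts with edgeR or DESeq2, against a background of 7.84% called. At an unadjusted p under 0.05 there was 1 member, miR-292a-3p, with 42963, 40600 and 30233 CPM in diapaused against 46192 and 61563 CPM in WT libraries (log2 -0.51, SE 0.23, edgeR adjusted p = 0.159). miR-294-3p differed by -0.05, with a 95% interval of -0.40 to 0.30. Members ranged from -0.72 to 0.04 with a median of -0.15, beside 0.10 over all tested. No member was called without polar WT replicate 2 either.

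The mTOR inhibitor gave no call of a member in either part with edgeR or DESeq2, and none at an unadjusted p under 0.05, against 22.5% of tested miRNAs called for mTORi against WT in polar pieces and 11.8% in mural pieces. In polar pieces members ranged from -1.33 (miR-291b-3p) to 0.41 (miR-295-3p) with a median of -0.25, beside 0.18 over all tested. miR-294-3p had 103723, 111232 and 91553 CPM in polar mTORi libraries, against 79928 and 96566 CPM in polar WT libraries (log2 0.21, 95% interval -0.14 to 0.56), with overlap between the groups. No member was called without polar mTORi replicate 3, or without polar WT replicate 2. With library size alone, which called 25.5% of all tested miRNAs, miR-293-3p was called lower (log2 -0.49, edgeR adjusted p = 0.0496). It held 4.64%, 4.21% and 4.03% of all counts in polar mTORi against 5.28% and 6.54% in polar WT libraries. In mural mTORi pieces it held 4.97%, 4.37% and 4.30% against 5.38% and 5.27% in WT, also without overlap, but its TMM log2 change was -0.14 (edgeR adjusted p = 0.757). Members ranged from -0.69 to 0.36 in mural pieces with a median of 0.11, beside -0.06 over all tested.

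Natural and induced pause were compared directly, and no member was called in polar pieces (background 15.7%) or mural pieces (background 0.980%) with edgeR or DESeq2. In polar pieces no member reached an unadjusted p under 0.05. When polar mTORi replicate 3, the library with the high miR-203-3p, was left out, miR-294-3p and miR-295-3p were called lower in diapaused than in mTORi polar pieces (log2 -0.59, SE 0.18, and -0.93, SE 0.29, edgeR adjusted p = 0.0354 for each). These were 2 of 6 members, beside 15 of 106 tested miRNAs called in that fit (14.2%), 11 of them lower. The median of the miRNAs of the main test was -0.19 in that fit, against 0.12 in the main fit. In polar mTORi replicate 3 miR-295-3p had 10331 CPM, against 19672 and 19455 CPM in the other polar mTORi libraries, and 15320, 11542 and 9826 CPM in the polar diapaused libraries. In mural pieces 2 members had an unadjusted p under 0.05, miR-294-3p (log2 0.43, SE 0.15, edgeR adjusted p = 0.0687) and miR-293-3p (0.40, SE 0.18, edgeR adjusted p = 0.173). Their changes were close to the median of all tested miRNAs, which was 0.41.

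The parts of diapaused blastocysts differed in 2 members, both lower in polar pieces. miR-294-3p had 87525, 96690 and 72370 CPM in polar against 136590, 165488 and 136590 CPM in mural diapaused libraries (log2 fold change -0.77, SE 0.15, edgeR adjusted p = 0.00171). miR-292a-3p had 42963, 40600 and 30233 CPM in polar against 69601, 51099 and 64608 CPM in mural diapaused libraries (log2 fold change -0.70, SE 0.20, edgeR adjusted p = 0.026). In TMM-scaled CPM neither arm overlapped between the parts. As a share of all counts miR-292a-3p did overlap, at 4.45%, 4.22% and 3.54% in polar against 5.50%, 4.16% and 5.20% in mural diapaused libraries. They made 2 of 6 members called lower, against 13.7% of all tested miRNAs called lower and 18.6% in either direction. All 6 members were negative, from -0.77 to -0.09 with a median of -0.60, beside 0.10 over all tested.

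Library size alone shifted the median of all tested miRNAs more here than in any other of the 11 contrasts. TMM factors ran from 0.818 to 0.847 in mural diapaused and from 1.10 to 1.26 in polar diapaused libraries. With library size alone the median of all tested miRNAs was 0.58, in place of 0.10, and no member was called: miR-294-3p was at -0.32 (adjusted p = 0.170) and miR-292a-3p at -0.24 (adjusted p = 0.282). With that scaling 13 miRNAs were called higher and 2 lower in polar pieces, in place of 5 higher and 14 lower with TMM, and miR-293-3p (0.05) and miR-291b-3p (0.38) turned positive. Relative to the median of all tested, miR-294-3p was at -0.88 with TMM, -0.88 with RLE and -0.89 with library size. miR-292a-3p was at -0.81, -0.81 and -0.82 on the same scale. A change of scaling moves all miRNAs nearly alike, so these values match by construction and do not test the scaling. As shares of all counts, miR-294-3p held 9.06%, 10.04% and 8.47% in polar against 10.8%, 13.5% and 11.003% in mural diapaused libraries. miR-294-3p kept its call with RLE, with no filter, with DESeq2, with the fit of only these groups and when any 1 library was left out, while the call of miR-292a-3p was lost with RLE (adjusted p = 0.0685), with no filter (adjusted p = 0.139) and in 4 of the 6 fits without 1 library (adjusted p up to 0.143).

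In the other treatments the test found no member that differed between the parts, though it can miss changes of 2-fold. For polar against mural pieces no member was called in mTORi blastocysts (background 4.90%) or in WT blastocysts (background 10.8%) with edgeR or DESeq2, and none had an unadjusted p under 0.05. Without polar mTORi replicate 3, or without polar WT replicate 2, no member was called either. miR-294-3p differed by -0.08 (95% interval -0.40 to 0.23) in mTORi and by -0.13 (-0.51 to 0.25) in WT. Whether the effect of diapause differed between polar and mural pieces was tested directly: 0 members and 0% of all miRNAs were called, and 2 members, miR-292a-3p (-0.90, SE 0.32) and miR-294-3p (-0.64, SE 0.23), had an unadjusted p under 0.05 with an edgeR adjusted p of 0.352 for each. DESeq2 called 0 members there too, with 1 at an unadjusted p under 0.05. For the effect of mTORi, 0 members and 0% of all miRNAs were called, with none at an unadjusted p under 0.05, and DESeq2 called 0 members.

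**Figure D4:**
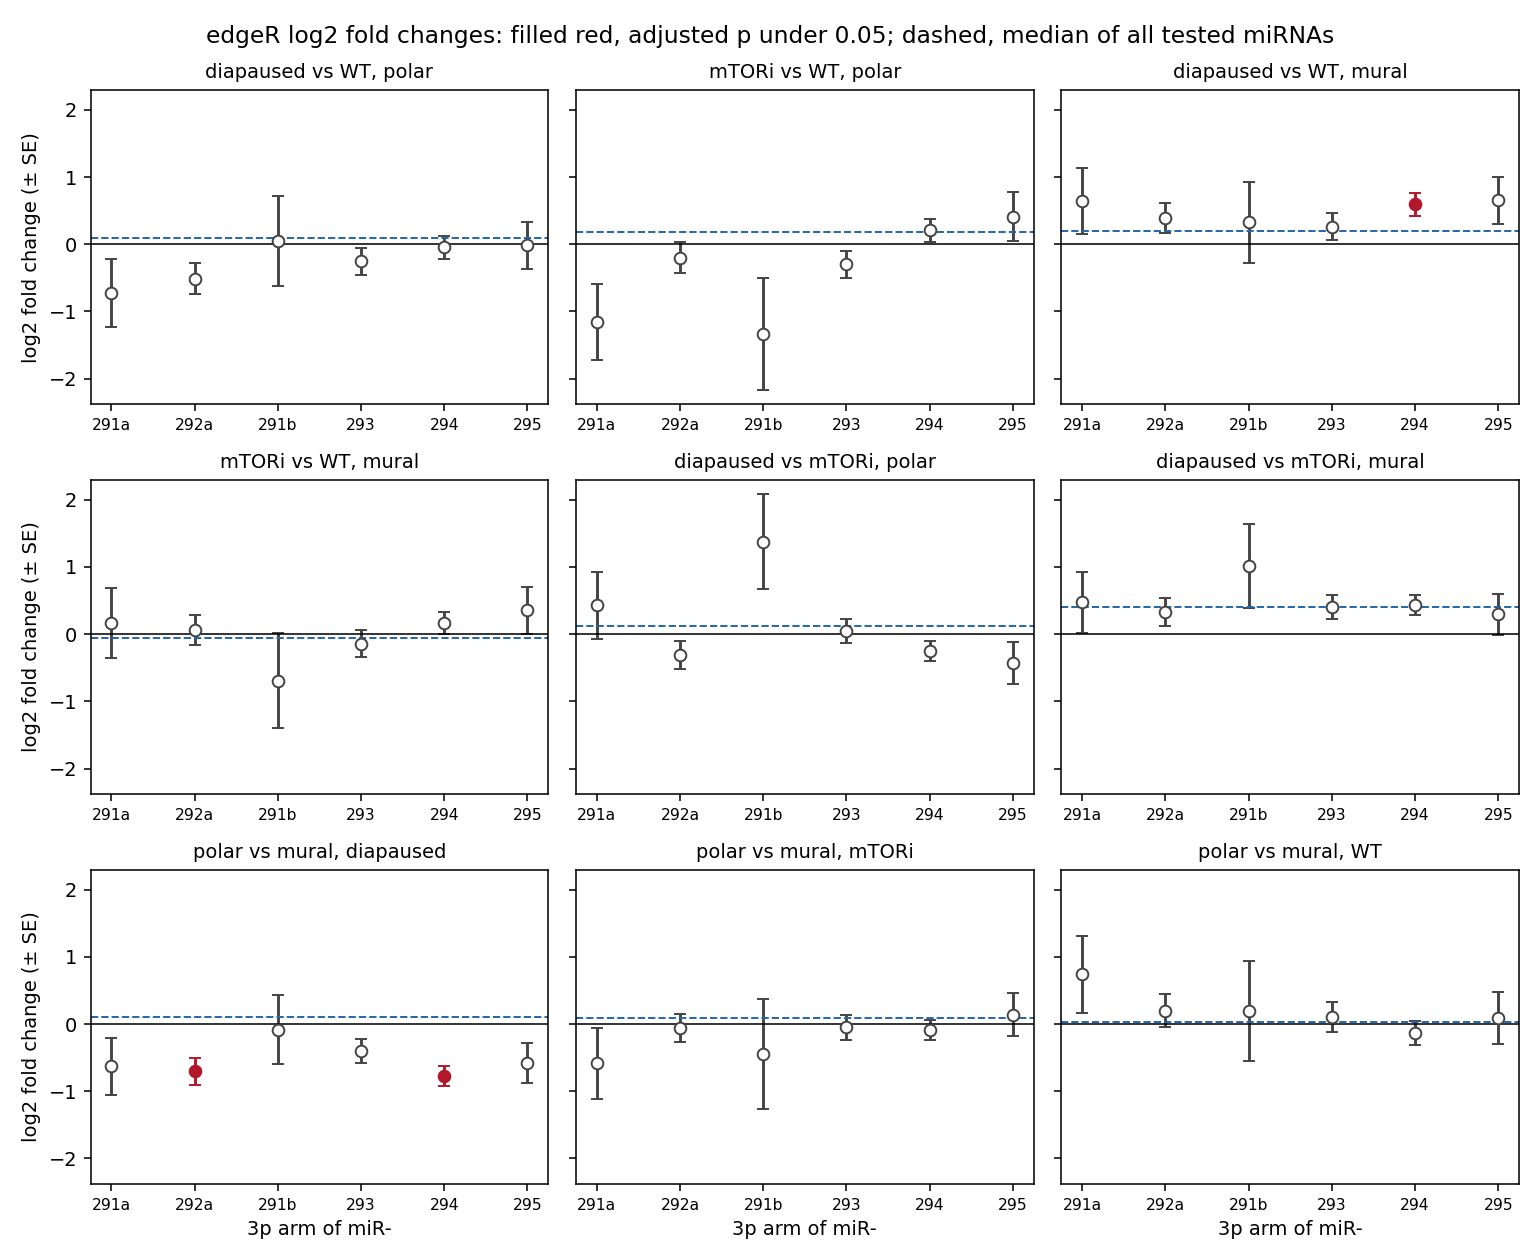
Log2 fold change with its SE (y axis) of the 6 tested 3p arms (x axis, in genome order) in 9 comparisons; filled red points are called, open points are not, and the dashed line is the median of the 102 tested miRNAs. miR-294-3p is called in mural diapaused against WT (0.60), and miR-294-3p (-0.77) and miR-292a-3p (-0.70) in polar against mural diapaused pieces.

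The 5p arms of the same precursors, the strands paired with the members in each hairpin, were all 7 tested. In polar mTORi against WT pieces 2 of 7 were called lower, beside 10 of all 102 tested called lower and 22.5% in either direction. They were miR-291a-5p (log2 -1.31, SE 0.41, edgeR adjusted p = 0.0287) and miR-292a-5p (-0.62, SE 0.19, edgeR adjusted p = 0.0266). Neither call was kept without polar mTORi replicate 3, where miR-291a-5p was at -0.72 (edgeR adjusted p = 0.214) and miR-292a-5p at -0.21 (edgeR adjusted p = 0.479). Neither was kept without polar WT replicate 2, at -0.91 (edgeR adjusted p = 0.238) for miR-291a-5p and -0.45 (edgeR adjusted p = 0.156) for miR-292a-5p. In mural mTORi against WT pieces 1 of 7 was called lower, miR-290a-5p (-1.58, SE 0.43, edgeR adjusted p = 0.0194). Beside it, 6 of all 102 tested were called lower and 11.8% in either direction. Between polar and mural diapaused pieces miR-292a-5p (-0.70) and miR-293-5p (-0.93) were called lower, 2 of 7, beside 13.7% of all tested called lower. The most counted 5p arm and the most counted 3p arm thus differed in the same direction there. The 5p arms had medians of -0.73 in polar mTORi, -0.71 in mural mTORi, -0.42 in polar diapaused and -0.12 in mural diapaused pieces against WT. In mural diapaused pieces miR-292a-5p was at 0.21 (SE 0.19, edgeR adjusted p = 0.685), although the 5p share of raw counts was smaller there than in WT. The 2 treatments share the WT libraries of a part.

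Outside the cluster, 10 miRNAs of the miR-302 and miR-17 families with the AAGUGC core in or beside the seed were listed, of which 3 passed the filter: miR-17-5p, miR-20a-5p and miR-93-5p, growth-promoting miRNAs of the miR-17 family. In polar mTORi against WT pieces 2 of 3 were called lower, beside 10 of all 102 tested called lower and 22.5% called in either direction. miR-17-5p had 1073, 1269 and 0 CPM in mTORi against 5709 and 3912 CPM in WT libraries (log2 -2.60, SE 0.74, edgeR adjusted p = 0.0187). miR-93-5p had 2146, 846 and 1781 CPM in mTORi against 5709 and 5559 CPM in WT libraries (-1.79, SE 0.51, edgeR adjusted p = 0.0187), and it was higher in diapaused than in mTORi polar pieces (1.57, SE 0.45, edgeR adjusted p = 0.027). All 3 calls were lost without polar mTORi replicate 3, while the log2 values kept their sign. For mTORi against WT, 13 of 106 tested miRNAs were called in that fit, in place of 23 of 102. Without polar mTORi replicate 3, miR-17-5p was at -1.75 (edgeR adjusted p = 0.0812) and miR-93-5p at -1.62 (edgeR adjusted p = 0.0701) against WT, and miR-93-5p at 1.37 for diapaused against mTORi (edgeR adjusted p = 0.103). Without polar WT replicate 2, miR-17-5p was at -2.81 (edgeR adjusted p = 0.0802) and miR-93-5p at -1.73 (edgeR adjusted p = 0.103) for mTORi against WT. None of the 3 was called in the other comparisons. Names with the seed AAGUGCU gave 14912 counts in all, of which 25 came from miR-302b-3p and miR-302d-3p and the rest from miR-291a-3p, miR-294-3p and miR-295-3p. They made up 8.37% to 15.4% of a library.

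Likeness across the 16 libraries was read from TMM log2 CPM as a description. Among the members, miR-294-3p and miR-295-3p had the highest Pearson r (0.75), then miR-292a-3p and miR-293-3p (0.70), while miR-291a-3p and miR-295-3p had the lowest (-0.02). Low counts limit r for miR-291a-3p and miR-291b-3p. Outside the cluster, the miRNA nearest to miR-294-3p was miR-322-5p (r = 0.76), which was also nearest to the 7 arms summed (0.65), before miR-200b-3p (0.56) and miR-351-5p (0.54). miR-322-5p and miR-351-5p stood on the list of miRNAs known from earlier results of these data to be higher in mural pieces, and miR-322-5p had 119 counts in polar against 1027 in mural diapaused libraries, 54 against 225 in mTORi and 12 against 290 in WT. The nearest to the others were miR-744-5p for miR-293-3p (0.64), miR-101a-3p for miR-292a-3p (0.46), miR-30d-5p for miR-295-3p (0.66), miR-18a-5p for miR-291a-3p (0.53) and miR-5099 for miR-291b-3p (0.77). The points share libraries, depth and scaling factors.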

How the data were processed

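Values are raw counts per mature miRNA name as deposited by the authors, in 16 libraries. Per the labels' protocols, adapters carried unique molecular identifiers, 12 to 20 PCR cycles were run, no size was selected and reads of 75 nt were taken on a NextSeq500. Per the submitters' processing notes the genome build was GRCm38. The sources used here do not give the aligner, the counting tool, the treatment of reads that match several names or any collapsing by identifier, so closely similar arms may trade counts and intervals cover counting error only.

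Libraries were grouped by their tissue and treatment labels. For the 3 libraries labelled mural and mTOR-inhibited, the title leaves out the part and reads diapaused, and the other labels were followed. Replicates differed beyond sampling noise in all 14 pairs (chi-square per degree of freedom 2.00 to 21.7).

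Shares used all counts of a library, with exact Clopper-Pearson 95% intervals. Counts were tested in R 4.3.3 with edgeR 4.0.16: filterByExpr (minimum count 10, minimum total 15) kept 102 of 1978 names, TMM scaling, a quasi-likelihood fit of 6 group means over 16 libraries, 11 contrasts, Benjamini-Hochberg adjustment over the tested names and a two-sided threshold of 0.05. The SE is the log2 change over the root of F. Logarithms of CPM for likeness used a prior count of 2. Arm use was tested with diffSpliceDGE on 22 arms. Tests were first tried on simulated counts. Alternatives were RLE factors, library size alone, no filter, DESeq2 1.42.0, a fit of only the groups compared, the replicate number as a block and leaving out each library.

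The main tests treated all libraries as unpaired, and the replicate number entered as a block only as an alternative. Deviations of same-numbered polar and mural mTORi libraries from their group means correlated weakly in all 3 pairs (r = 0.16, 0.11 and 0.18). These libraries may therefore be paired, but the labels do not say what a number shares. Other compared groups had a lower value or only 2 pairs.

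All 7 members are named; in a contrast called members are given with their statistics and the others by range. The members, lists and markers were chosen with earlier results of these data known. The split of the 3p share into precursors and arms, which averages both possible orders, was added after the values were seen.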

Additional observations from a re-analysis of the deposited data

Results flagged for a closer look

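For 2 members, on the scale of TMM CPM, every library moved one way in polar pieces and the opposite way in mural pieces. miR-291a-3p was lower in all diapaused than in all WT libraries of polar pieces and higher in mural pieces; the test of that difference gave a log2 value of -1.37 (SE 0.71, edgeR adjusted p = 0.447). miR-292a-3p was lower in all polar diapaused than in all polar WT libraries and higher in all mural diapaused than in all mural WT libraries, with a difference of -0.90 (SE 0.32, edgeR adjusted p = 0.352). Seen between the parts, miR-291a-3p was lower in polar than in mural pieces of diapaused blastocysts, at -0.63 (SE 0.42), and higher in polar than in mural pieces of WT blastocysts, at 0.74 (SE 0.57), which is the same difference of -1.37. Neither difference passed the test. As shares of all counts neither pattern held: miR-291a-3p was at 0.453% in polar diapaused replicate 3, against 0.445% in polar WT replicate 2, and miR-292a-3p at 4.16% in mural diapaused replicate 2, against 4.99% and 4.41% in the mural WT libraries. With library size alone the difference was -0.98 for miR-291a-3p and -0.53 for miR-292a-3p.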

How the results depend on the processing

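The numbers of called members changed under some settings. For mural diapaused against WT the count was 1, and it was 0 with RLE factors, library size alone, no filter, DESeq2, and the groups compared alone, and 0 in each of the 5 fits without 1 library. For polar against mural diapaused pieces the count was 2, and it was 1 with RLE factors or no filter, 0 with library size alone, and 1 to 2 without 1 library. For mTORi against WT in polar pieces the count was 0, and it was 1 with library size alone. For diapaused against mTORi in polar pieces the count was 0, and it was 0 to 2 without 1 library. The other 7 contrasts gave 0 called members under every setting run, and arm use gave 0 under no filter, the replicate block and each left-out library. A fit without 1 WT library leaves 1, which is assumed to vary like the other groups. Against TMM, library size alone shifted the median of all tested miRNAs by -0.29 to 0.47 over the 11 contrasts and RLE by -0.24 to 0.15; 8 and 7 of 66 member values changed sign, none of them a called one. Calls among all tested miRNAs moved by over 1.5 times under more settings, given here with the TMM count last. For diapaused against WT they were 13 with RLE and 15 with DESeq2 (8) in polar pieces, and 5 with RLE or library size (10) in mural pieces. For mTORi against WT they were 2 with only the groups compared (23) in polar and 22 (12) in mural pieces. For diapaused against mTORi they were 3 with only the groups compared (16) in polar pieces, and in mural pieces 5 with RLE or DESeq2, 4 with library size, 6 with no filter and 17 with only the groups compared (1). For polar against mural pieces they were 20 with DESeq2 and 7 with only the groups compared (11) in WT, 30 and 29 (19) in diapaused, and 10 with DESeq2, 9 with no filter and 0 with only the groups compared (5) in mTORi. For the mTORi effect between parts they were 1 with RLE or DESeq2 and 6 with no filter (0). Without 1 library they were 4 to 28 for mTORi against WT in polar pieces, lowest without polar WT replicate 2 (4) or replicate 1 (7), and 13 without polar mTORi replicate 3. They were 2 to 7 and 0 to 6 for diapaused against WT in polar and mural pieces, 6 to 8 for mTORi against WT in mural pieces, and 4 to 18 and 0 to 3 for diapaused against mTORi. They were 5 to 11, 0 to 6 and 4 to 8 for polar against mural pieces in diapaused, mTORi and WT, and 0 to 1 for the mTORi effect between parts. Correlations of same-numbered deviations ran from -0.22 to 0.36, with 10 of 22 over 0.1. The main tests used no pairing, also for polar against mural mTORi libraries. With the replicate block miR-294-3p was at 0.65 in mural diapaused against WT (edgeR adjusted p = 0.0118), and the number of called members was the same as without it in every contrast. Counting miR-290b and miR-292b with the cluster changed no share, as they had 0 counts. Means of the summed 3p share of the cluster stayed within 46.4% to 49.1% in diapaused, 50.9% to 56.1% in mTORi and 41.1% to 43.9% in WT groups when 1 library was left out. Low counts limit miR-290a-3p, miR-291a-3p and miR-291b-3p, and the small polar WT libraries limit each comparison with them.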
